A study of Homo sapiens with 19 samples.

Results

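The RNAs described here are 6 long non-coding RNAs, NEAT1, MALAT1, H19, MIR210HG, GAS5 and BCYRN1, chosen by symbol from the 23441 genes of the RNA-seq count table. They were followed through all 9 RNA-seq libraries and through the 7 ChIP-seq peak lists of the same cells. All 6 have a row in the count table, and 5 of them passed the filter on low counts that left 14225 genes for testing. H19 did not pass it and is described by its counts.

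The cells were 786-O, a renal clear cell carcinoma line in which VHL is defective, so that HIF-2α accumulates without hypoxia, and which makes only truncated HIF1A transcripts. Pools of these cells, not clones, were infected with a lentivirus, pRRL.IRES.EGFP, that carried no insert (control cells), HIF-1α (HIF-1α re-expressing cells) or HIF-2α (HIF-2α overexpressing cells). Every pool therefore carries the VHL defect, the vector and endogenous HIF-2α. Gene expression was measured by polyA+ RNA-seq in 3 libraries of each pool, with totals of 27852754 to 54287621 counts. The labels do not say whether these libraries came from separate cultures, so the p-values measure only the spread between the libraries, which may be technical. ChIP-seq was done once for each antiserum and pool. HIF-2α and HIF-1β were precipitated in all 3 pools and HIF-1α in the re-expressing cells.

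HIF-1α and HIF-2α each pair with HIF-1β and bind DNA at hypoxia response elements, whose core is ACGTG or GCGTG. Long non-coding RNAs are transcribed like messenger RNAs but are not translated, and they act as structural RNAs, as hosts of smaller RNAs or as partners of proteins. NEAT1 builds the paraspeckle and MALAT1 lies in nuclear speckles. MIR210HG is the host transcript of miR-210, the microRNA best known for its induction in hypoxia. H19 is an imprinted RNA expressed in the fetus and is the host of miR-675. GAS5 is the host of a set of box C/D snoRNAs and has a 5' terminal oligopyrimidine tract, like the messenger RNAs of ribosomal proteins. BCYRN1 (BC200) is a short, Alu-derived RNA made by RNA polymerase III. NEAT1 and MALAT1 are in large part not polyadenylated in the usual way, so selection on polyA captures a part of these RNAs.

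MIR210HG spans chr11:565657-568457 on the minus strand of GRCh37, and the annotated MIR210 lies inside it at positions 568089 to 568198. The mature miR-210 sequences are given first because they are the product for which this transcript is known, followed by the promoter because every peak list has a window over it. The sequences are from RefSeq (GRCh38.p14, minus strand), the microRNAs at chr11:568112-568133 for the 3p arm and chr11:568150-568171 for the 5p arm, with the seed (bases 2 to 8) in capitals. The promoter, chr11:568408-568707, runs from 250 bases before to 50 after the start, and its capitals mark the HRE core.
hsa-miR-210-3p: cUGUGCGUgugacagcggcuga
hsa-miR-210-5p: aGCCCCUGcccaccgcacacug
MIR210HG promoter: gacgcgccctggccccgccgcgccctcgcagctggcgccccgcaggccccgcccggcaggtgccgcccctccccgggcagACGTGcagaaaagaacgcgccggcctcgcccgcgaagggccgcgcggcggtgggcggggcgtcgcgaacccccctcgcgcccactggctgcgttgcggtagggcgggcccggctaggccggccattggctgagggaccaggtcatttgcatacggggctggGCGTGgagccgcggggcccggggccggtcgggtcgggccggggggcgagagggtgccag

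The promoter held 2 HRE cores, ACGTG beginning at position -170 from the start and GCGTG beginning at position -9. A core on either strand (ACGTG or GCGTG, with the overlapping matches that both strands give at CACGTG counted separately) was present in 48.4% of the 35116 RefSeq promoter windows of the same length, so its presence alone does not set MIR210HG apart. Of the 4 members with a RefSeq promoter window, MIR210HG and MALAT1 held the core in it, and H19 and GAS5 did not. Only 1 window was searched for GAS5, which has 13 annotated start sites, and for H19, which has 24. The 300-base stretches at the GAS5 peaks, described below, held 1 to 4 cores.

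Among the controls, library 3 stood apart in HIF1A, at 152 CPM against 30.4 and 36.7 CPM in the others and 171 CPM in re-expressing library 1, and in CA9, a HIF target, at 14.3 CPM against 0 and 0.171 CPM. Without this library the log2 fold change of MIR210HG between re-expressing and control cells was 1.72 with the replicate block (edgeR adjusted p = 0.108) and 1.80 with the cell pool alone (adjusted p = 0.307). That of BCYRN1 was -1.48 (adjusted p = 0.162) and -1.71 (adjusted p = 0.322), so that neither was called. Without this library both fits called 0 of all genes. With all libraries the blocked fit called 1132 genes and the fit with the cell pool alone 0. The values of both RNAs with all libraries follow.

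MIR210HG had the highest level in the HIF-1α re-expressing cells. In CPM (the share of a library's counts on the usual per-million scale, with TMM-scaled library sizes) it was at 5.43, 7.94 and 9.38 in libraries 1 to 3 of the control cells, at 11.2, 41.1 and 17.9 in the re-expressing cells, and at 6.33, 12.2 and 7.30 in the HIF-2α overexpressing cells. The 3 re-expressing libraries were above all 3 control libraries, a pattern found in 12.9% of the genes tested. They overlapped with the overexpressing cells, because re-expressing library 1 was below overexpressing library 2. The means were 7.58 ± 2.00 in the control cells, 23.4 ± 15.7 in the re-expressing cells and 8.62 ± 3.17 in the overexpressing cells (SD, n = 3 each).

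**Figure D1:**
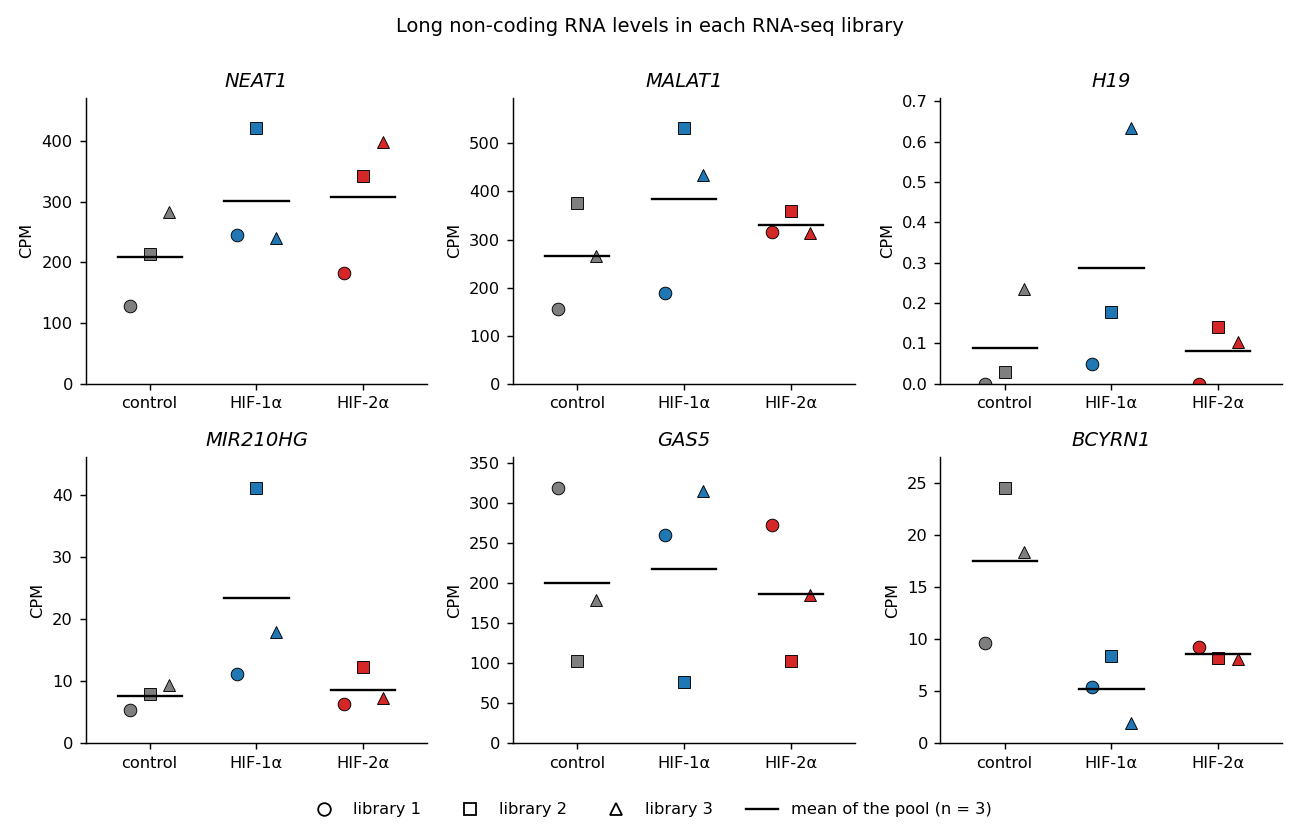
Levels of the 6 RNAs in CPM (vertical axes, from 0) in each of the 9 RNA-seq libraries, by cell pool (horizontal axes); the symbol gives the library number and the bar the mean of 3 libraries. All 3 MIR210HG values of the HIF-1α pool lie above the control values, all BCYRN1 values of the HIF-1α and HIF-2α pools lie below the control values, and library 2 has the lowest GAS5 value of each pool.

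The libraries were tested with the edgeR quasi-likelihood test over all genes with Benjamini-Hochberg adjustment, first on cell pool alone and then with the library number as a block, because libraries of the same number deviated together. With the cell pool alone, edgeR called 0 of the 5 tested members between re-expressing and control cells, as it called 0% of all genes, while 2 members, MIR210HG and BCYRN1, were below 0.05 before adjustment. In the blocked fit it called these 2 members, against 7.96% of all genes (5.41% higher and 2.55% lower in the re-expressing cells), and DESeq2 without the block also called 2, against 5.25%. Between overexpressing and control cells all 3 tests called 0 of the members, against 0%, 0.267% and 0.412% of all genes. The numbers at an unadjusted p under 0.05 were 0 for edgeR in either fit and 1 for DESeq2, which was BCYRN1.

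MIR210HG differed between re-expressing and control cells by a log2 fold change of 1.63 (SE 0.48, 95% interval 0.56 to 2.69, edgeR adjusted p = 0.162), and by 1.45 (SE 0.30, 0.77 to 2.13, adjusted p = 0.0366) with the replicate block. Library by library, the re-expressing cells had 2.07, 5.18 and 1.91 times the control level of the same number. The blocked call was lost when any of 6 of the 9 libraries was left out (control 2 or 3, re-expressing 1, 2 or 3, overexpressing 1), with adjusted p between 0.0339 and 0.197 over the 9 such fits. Calls over all genes, 1132 with all libraries, fell to 0 without control 2 or 3, re-expressing 2 or overexpressing 1. They were 211 without re-expressing 1, 34 without re-expressing 3 and 503 to 2408 in the fits that kept the call. Against the overexpressing cells, edgeR called 0 of the members with the cell pool alone, against 0.0492% of all genes, with 1 member, MIR210HG, at an unadjusted p under 0.05, and with the block it called MIR210HG, against 5.93% of all genes (4.54% in the same direction). That log2 fold change was 1.44 (SE 0.48, edgeR adjusted p = 0.230), and 1.32 (SE 0.30, 0.65 to 1.99, adjusted p = 0.0352) with the block. It was called in 5 of 9 fits that left out a library, with adjusted p between 0.0336 and 0.188, and was lost without re-expressing library 2 or any of the 3 overexpressing libraries. These 9 fits called 167 to 890 of all genes, against 843 with all libraries. DESeq2 called 0 members in this comparison (4.43% of all genes), with MIR210HG alone at an unadjusted p under 0.05.

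In the overexpressing cells MIR210HG did not pass the test against the control cells. The log2 fold change was 0.18 (95% interval -0.86 to 1.23, edgeR adjusted p = 0.962), and the ratios of same-numbered libraries were 1.17, 1.54 and 0.778. The re-expressing and the overexpressing cells were each set against the same 3 control libraries.

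**Figure D2:**
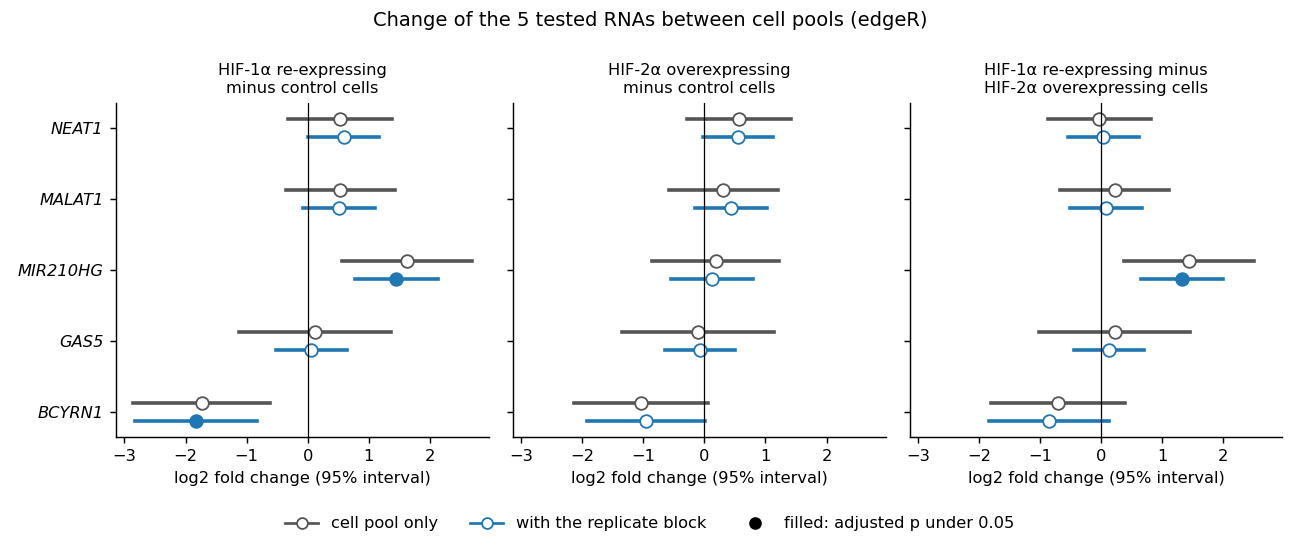
Log2 fold changes of the 5 tested RNAs with their 95% intervals (horizontal axes) for the 3 comparisons of cell pools, from edgeR with the cell pool alone (grey) and with the replicate block (blue); filled points have an adjusted p under 0.05. The filled points are MIR210HG and BCYRN1 in the first panel and MIR210HG in the third, all with the block.

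The level of MIR210HG was set beside those of the introduced genes. HIF1A was at 30.4, 36.7 and 152 CPM in the control cells, at 171, 1682 and 473 CPM in the re-expressing cells and at 15.3, 30.4 and 17.5 CPM in the overexpressing cells. These counts do not separate the introduced HIF-1α from the truncated transcripts of the line. EPAS1, which encodes HIF-2α, was at 456, 224 and 162 CPM in the control cells, at 575, 627 and 397 CPM in the re-expressing cells and at 946, 3244 and 880 CPM in the overexpressing cells. Library 2 had the highest HIF1A and MIR210HG levels of the re-expressing pool, and the highest EPAS1 and MIR210HG levels of the overexpressing pool.

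**Figure D3:**
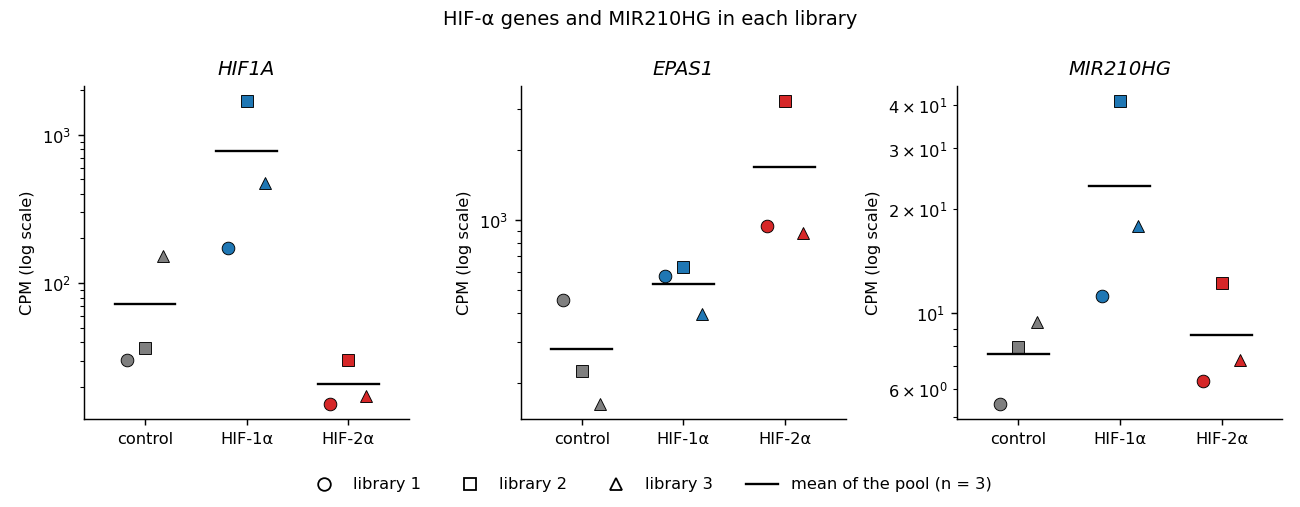
HIF1A, EPAS1 and MIR210HG in CPM (vertical log axes) in each library, by cell pool; the symbol gives the library number and the bar the mean of 3 libraries. In the HIF-1α pool library 2 is highest for all 3 genes, and in the HIF-2α pool it is highest for EPAS1 (3244 CPM) and MIR210HG (12.2 CPM).

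The gene whose levels followed MIR210HG most closely over the 9 libraries, among 10670 genes with at least 5 CPM on average, was ANKRD12 (Pearson r of log2 CPM 0.964), followed by RCOR1 (0.958) and PPFIA4 (0.956). These values are descriptions over 9 libraries that share pools and library numbers. PPFIA4 was at 2.17, 3.19 and 2.58 CPM in the control cells, at 11.1, 119 and 21.9 CPM in the re-expressing cells and at 3.73, 5.76 and 3.26 CPM in the overexpressing cells. MIR210 itself has a row of its own in the table, with 1 count over all 9 libraries, so the mature microRNA was not measured by these libraries.

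The genes around MIR210HG were also examined. Of 13 genes with a start site within 100 kb, 11 passed the filter, and the fit with the cell pool alone called 0 of them between re-expressing and control cells (3 below 0.05 before adjustment, and 1 called by DESeq2). The nearest on either side were RASSF7, a Ras-association domain protein 6.05 kb away, with a blocked log2 fold change of 0.10 (edgeR adjusted p = 0.829), and PHRF1, a PHD and RING finger protein, with -0.030 (adjusted p = 0.935). With the replicate block 1 of the 11 was called, against 7.96% of all genes. This was CDHR5, a cadherin-related protein whose start site is 52.7 kb from that of MIR210HG. CDHR5 rose by 3.26 on the log2 scale (edgeR adjusted p = 0.0405), at a mean level of only 0.271 CPM.

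MIR210HG was the member with a peak in every list. Each ChIP-seq peak is a window of 2500 bp without a score, and a gene was counted when the midpoint of a window was within 10 kb of an annotated start site. All 7 lists had such a window at MIR210HG, which 275 of the 22063 genes placed on the annotation shared (1.25%). The nearest midpoints lay 0.115 to 0.53 kb upstream of the start site, every one of these windows covered the start site, and chr11:567738-569822 (GRCh37) was common to all 7. Their midpoints fell within 0.415 kb of each other. The promoter core at position -170 was 32 to 362 bp from them, and the core at position -9 was 108 to 523 bp from them. Each of these windows held 9 to 11 HRE cores, so the windows do not tell which core was bound. The same windows also lie within 10 kb of start sites of RASSF7, C11orf35 and PHRF1. Those start sites are 6.05, 7.69 and 8.01 kb from one of MIR210HG. With 1 library for each antiserum and pool, differences between the lists have no replicate check.

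More distant windows were listed at MIR210HG in some samples. A window 7.03 to 7.54 kb downstream of the start site was present in the HIF-1β lists of the 3 pools and in the HIF-2α list of the overexpressing cells. A window 7.52 or 7.84 kb upstream was present in the HIF-1β lists of the control and re-expressing cells.

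**Figure D4:**
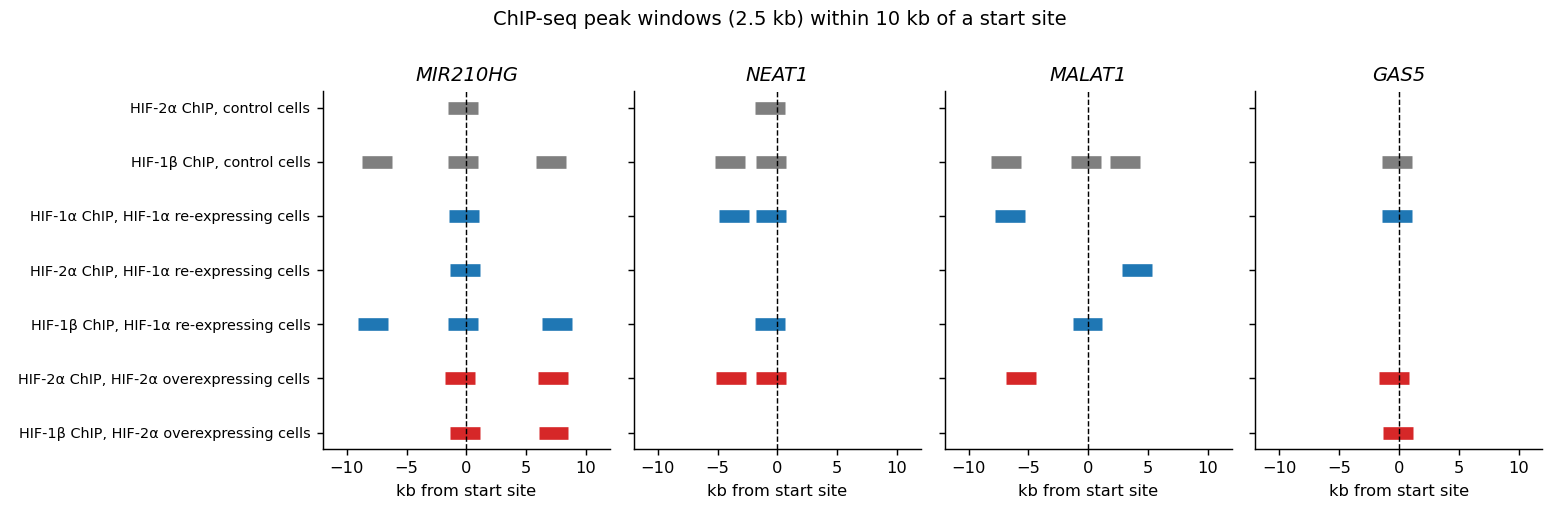
Peak windows of 2.5 kb (bars) within 10 kb of a start site of MIR210HG, NEAT1, MALAT1 and GAS5, by distance from the nearest start site in kb (horizontal axes, negative upstream) and peak list (rows; grey for control, blue for HIF-1α re-expressing and red for HIF-2α overexpressing cells). A window over the start site of MIR210HG is present in all 7 rows, NEAT1 has one in 5, GAS5 in 4 and MALAT1 in 2.

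NEAT1 spans chr11:65190245-65213011 on the plus strand of GRCh37. It is the RNA scaffold on which paraspeckles form. A 300-base stretch at the midpoint of its HIF-1α peak in the re-expressing cells, chr11:65189594-65189893 (GRCh37, plus strand), is shown because 5 of the 7 lists had a window here, with the 4 HRE cores in capitals.
NEAT1 upstream peak: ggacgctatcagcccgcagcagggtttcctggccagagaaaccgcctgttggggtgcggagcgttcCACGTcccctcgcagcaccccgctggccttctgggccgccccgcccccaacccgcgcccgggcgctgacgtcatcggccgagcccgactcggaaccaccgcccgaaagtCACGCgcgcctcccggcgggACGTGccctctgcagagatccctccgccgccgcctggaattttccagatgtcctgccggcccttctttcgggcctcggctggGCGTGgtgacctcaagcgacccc

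The midpoints of the 5 windows lay 0.502 to 0.623 kb upstream of the NEAT1 start site. The lists without one were HIF-2α in the re-expressing cells and HIF-1β in the overexpressing cells. Windows near a start site in 5 or more lists were found at 5.37% of genes. Another window, 3.6 to 3.96 kb upstream, was listed for HIF-1β in the control cells, HIF-1α in the re-expressing cells and HIF-2α in the overexpressing cells.

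NEAT1 was at 128, 214 and 284 CPM in the control cells, at 245, 421 and 240 CPM in the re-expressing cells and at 182, 343 and 399 CPM in the overexpressing cells. The pools overlapped. The level did not pass the test in either comparison with the control cells, with a log2 fold change of 0.53 (95% interval -0.32 to 1.39, edgeR adjusted p = 0.450) for HIF-1α and of 0.56 (-0.29 to 1.42, adjusted p = 0.842) for HIF-2α. In same-numbered libraries the overexpressing cells had 1.43, 1.60 and 1.41 times the control level, and the re-expressing cells had 1.92, 1.96 and 0.846 times. The adjusted p with the replicate block was 0.145 and 0.355, respectively.

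MALAT1 lies downstream of NEAT1 at chr11:65265111-65275544 on the plus strand and is a nuclear speckle RNA. It was at 155, 376 and 266 CPM in the control cells, at 188, 531 and 434 CPM in the re-expressing cells and at 315, 360 and 313 CPM in the overexpressing cells. The re-expressing cells had the higher value in each of the 3 same-numbered pairs, with ratios of 1.22, 1.41 and 1.63, but the pools overlapped. The log2 fold change was 0.53 (95% interval -0.36 to 1.42, edgeR adjusted p = 0.472), and 0.51 (adjusted p = 0.198) with the replicate block. In the overexpressing cells it was 0.31 (-0.58 to 1.20, adjusted p = 0.903), with ratios of 2.04, 0.957 and 1.18.

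MALAT1 also had a window within 10 kb in 5 of 7 lists, but at different places. Only the HIF-1β lists of the control and re-expressing cells had a window over a start site, with midpoints 0.145 and 0.057 kb upstream. The nearest windows of the other 3 lists were 6.57 kb upstream (HIF-1α, re-expressing cells), 4.07 kb downstream (HIF-2α, re-expressing cells) and 5.60 kb upstream (HIF-2α, overexpressing cells). The distance of 4.07 kb is from an internal start site, as MALAT1 has 40 annotated ones. The midpoint of that window is 11.1 kb from the 5' end of MALAT1, beyond the end of the gene. By the 5' end alone, 4 lists had a window within 10 kb. Only 2 lists were left when the distance from any start site was set to 2.5 kb. Of the 6 tested genes with a start site within 100 kb of MALAT1, the blocked fit called 1 between re-expressing and overexpressing cells, against 5.93% of all genes. This was LTBP3, a binding protein of latent TGF-β 35.8 kb away, which was higher in the re-expressing than in the overexpressing cells by 1.69 on the log2 scale (edgeR adjusted p = 0.0289, and 0.452 with the cell pool alone). The genes nearest in pattern to NEAT1 were SHPK (r = 0.938), GTF3C4 (0.896) and IKZF4 (0.888), and to MALAT1 they were ELFN2 (0.934), CDCA2 (0.931) and TMEM123 (0.931). NEAT1 and MALAT1 had an r of 0.621 with each other over the 9 libraries.

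Proteins of paraspeckles and nuclear speckles, 23 genes that were all tested, were examined as the partners of these RNAs. With the cell pool alone edgeR called 0 in any comparison (9 below 0.05 before adjustment between re-expressing and control cells, where DESeq2 called 2). With the replicate block 2 of the 23 were higher in the re-expressing than in the control cells, against 5.41% of all genes. These were ZC3H6, with a log2 fold change of 1.42 (adjusted p = 0.0427), and SRRM2, a scaffold protein of nuclear speckles, with 0.68 (adjusted p = 0.0463). The median log2 fold change of the list with the cell pool alone was -0.30, against 0.04 for all genes tested.

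GAS5 spans chr1:173827697-173838020 on the minus strand. A 300-base stretch at the midpoint of its HIF-1α peak in the re-expressing cells, chr1:173837169-173837468 (GRCh37, minus strand), is shown because 4 of the 7 lists had a window over a GAS5 start site, with the HRE cores in capitals.
GAS5 start site peak: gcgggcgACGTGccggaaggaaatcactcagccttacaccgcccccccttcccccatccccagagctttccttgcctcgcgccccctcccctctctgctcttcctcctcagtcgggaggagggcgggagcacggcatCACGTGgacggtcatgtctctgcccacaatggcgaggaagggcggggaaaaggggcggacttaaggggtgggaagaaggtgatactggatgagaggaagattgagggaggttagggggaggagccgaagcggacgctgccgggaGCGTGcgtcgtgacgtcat

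The 4 lists were HIF-1β in the control cells, HIF-1α in the re-expressing cells and both HIF-2α and HIF-1β in the overexpressing cells. Midpoints lay 0.049 to 0.417 kb upstream of a start site. Windows in 4 or more lists were found at 9.76% of genes. A start site of ZBTB37, a zinc finger gene, is 0.087 kb from one of GAS5, and these windows cover both. The strand setting of the counts is not given in the sources used here, so reads of overlapping genes may not be separated.

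GAS5 was at 319, 103 and 179 CPM in the control cells, at 260, 77.1 and 315 CPM in the re-expressing cells and at 273, 103 and 185 CPM in the overexpressing cells. The pools overlapped, and the libraries stood in a similar order by number. Library 2 was lowest in each pool, and the mean of libraries 1 and 3 was 2.41, 3.73 and 2.23 times library 2 in the control, re-expressing and overexpressing cells. The log2 fold changes were 0.12 (95% interval -1.12 to 1.36, edgeR adjusted p = 0.926) for HIF-1α and -0.10 (-1.34 to 1.14, adjusted p = 0.984) for HIF-2α. With the replicate block the intervals were -0.52 to 0.64 and -0.64 to 0.50. Library 2 was lowest in every pool for 11.0% of the genes tested.

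Other hosts of snoRNAs were set beside GAS5. Of 23 such genes, 10 had the lowest level in library 2 of every pool, which were SNHG5, SNHG6, SNHG8, SNHG11, SNHG15, SNHG17, ZFAS1, EEF1B2, RPL23A and CWF19L1. Between re-expressing and control cells the blocked fit called 1 of the 24 tested host genes, against 7.96% of all genes. This was SNHG3, which fell by 0.96 on the log2 scale (edgeR adjusted p = 0.0427). With the cell pool alone edgeR called 0 of them (5 below 0.05 before adjustment), DESeq2 called 1, and the median log2 fold change of the list was -0.43, against 0.04 for all genes tested. The snoRNAs of GAS5 were not measured by these libraries, as the highest count in a library among the 13 small RNA genes of the members with a row in the table was 8, for SNORD80.

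**Figure D5:**
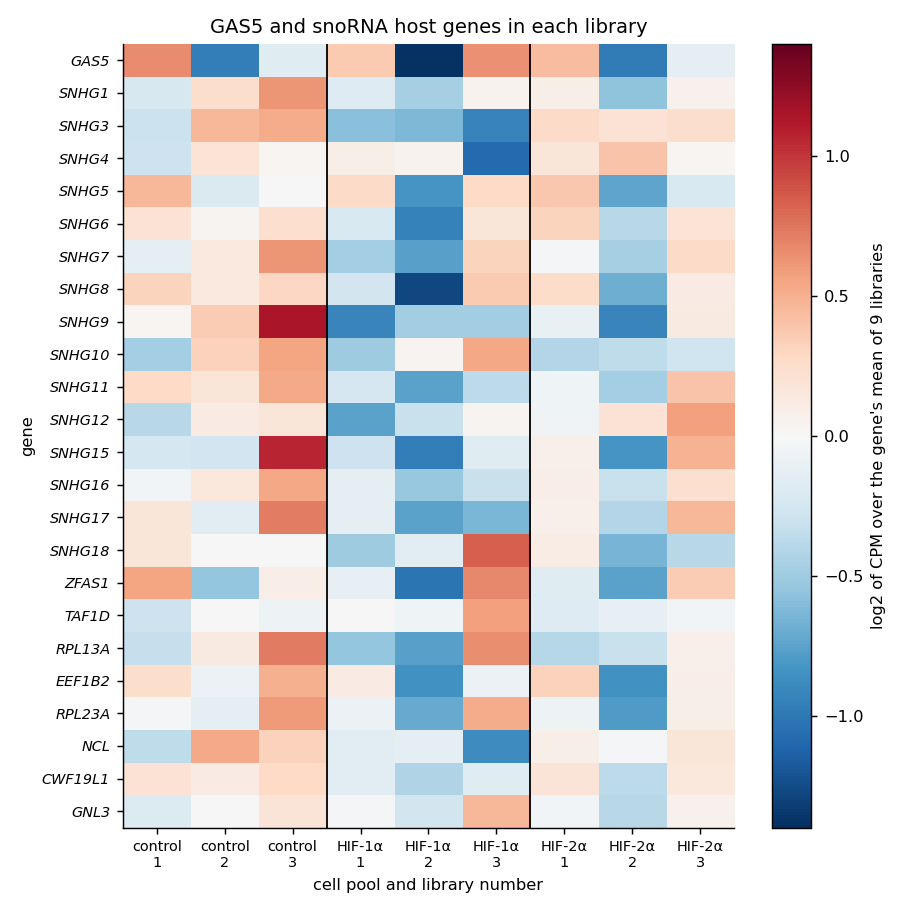
Levels of GAS5 and 23 other tested snoRNA host genes (rows) in each library (columns, by cell pool and library number), as the log2 of CPM over the mean of the gene in the 9 libraries; red is higher and blue lower. GAS5 and 10 of the 23 other host genes are lowest in library 2 of each of the 3 pools.

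The genes closest to GAS5 in pattern were RCAN1 (r = 0.975), IFT20 (0.975) and SIRT5 (0.974). GAS5 had negative correlations with NEAT1 (-0.650), MALAT1 (-0.618), MIR210HG (-0.512) and BCYRN1 (-0.472) over the 9 libraries. MALAT1 was highest in library 2 of every pool, as were 9.41% of genes, and MIR210HG was lowest in library 1 of every pool, as were 11.6%. What distinguishes the library numbers is not given in the sources used here.

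BCYRN1 lies at chr2:47562454-47562653 on the plus strand (GRCh37), upstream of EPCAM. It is 200 bases long, and its sequence bears on how its counts can be read. The 5' part of BCYRN1 is Alu-derived, and its middle part is rich in A. Of 31 stretches of 50 bases taken every 5 bases along it, 1 occurred once in GRCh37 and 30 occurred more than once, at up to 35 places. Bases 101 to 195 also occur at chrX:138802838-138802932 on the plus strand. The authors kept fragments with a unique alignment, and the count table gives only the symbol, so it is uncertain which fragments and which place the BCYRN1 counts hold.

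BCYRN1 had its highest levels in the control cells. It was at 9.65, 24.6 and 18.4 CPM in the control cells, at 5.39, 8.43 and 1.95 CPM in the re-expressing cells and at 9.29, 8.23 and 8.14 CPM in the overexpressing cells. The re-expressing and overexpressing pools were both below every control library, although overexpressing library 1 and control library 1 were close. Of the genes tested, 2.14% had both pools below the controls, 11.2% had the re-expressing pool below and 5.19% the overexpressing pool below. The means were 17.5 ± 7.49, 5.26 ± 3.24 and 8.56 ± 0.639 CPM (SD, n = 3 each).

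Between re-expressing and control cells the log2 fold change of BCYRN1 was -1.74 (SE 0.50, 95% interval -2.86 to -0.62, edgeR adjusted p = 0.162). With the replicate block BCYRN1 fell by 1.82 on the log2 scale (SE 0.44, adjusted p = 0.0439), and DESeq2 gave an adjusted p of 0.0186. The re-expressing cells had 0.559, 0.343 and 0.106 times the control level of the same number. The blocked call was kept in 2 of 9 fits that left out a library, without control library 1 or overexpressing library 2, with adjusted p between 0.0238 and 0.208. Over all genes these 2 fits called 2408 and 827, and the 7 others 0 to 503, against 1132 with all libraries. In the overexpressing cells the log2 fold change was -1.03 (-2.13 to 0.06, edgeR adjusted p = 0.837), and -0.96 (adjusted p = 0.344) with the block, with ratios of 0.963, 0.335 and 0.443. In a bulk sample, fewer cells that make an RNA and less of the RNA per cell cannot be told apart.

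No list had a peak within 10 kb of BCYRN1. The nearest windows, 19.4 to 19.6 kb away, were in the HIF-1β list of the control cells and the HIF-2α list of the overexpressing cells. EPCAM, an epithelial adhesion molecule 9.84 kb from BCYRN1, had a blocked log2 fold change of 0.30 between re-expressing and control cells (edgeR adjusted p = 0.425). Proteins known to bind BC200 or Alu RNA numbered 17 among the tested genes, and edgeR called 0 of them in any comparison, with or without the block, as did DESeq2. Between re-expressing and control cells 1 was below 0.05 before adjustment with the cell pool alone, 5 with the block and 2 in DESeq2. Their median log2 fold change was 0.00 between re-expressing and control cells. The genes closest to BCYRN1 in pattern were PTBP1 (r = 0.983), TSPAN17 (0.981) and H2AFY (0.979).

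H19 spans chr11:2016396-2025782 on the minus strand. It had 0, 1 and 9 counts in the control cells, 2, 7 and 34 in the re-expressing cells and 0, 4 and 4 in the overexpressing cells. All libraries were thus at or near the limit of detection, and 3 counts, the most that a count of 0 allows, correspond to 0.0776 CPM in control library 1 and 0.0722 CPM in overexpressing library 1. The library with 34 counts, re-expressing library 3, was at 0.63 CPM. No test of H19 is given, because the row did not pass the filter.

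The nearest peaks to H19 were 48.7 kb away, in the HIF-1α list, and 48.8 kb away, in the HIF-1β list of the re-expressing cells. MIR675, inside H19, had 0 counts. IGF2, the neighbouring imprinted growth factor gene, is listed at 0 in all 9 libraries. Of 12 tested imprinted genes, the blocked edgeR fit called 3 between re-expressing and control cells, as did DESeq2, and the fit with the cell pool alone 0 (4 below 0.05 before adjustment). Over all genes the shares called were 7.96% with the block, 5.25% in DESeq2 and 0% with the cell pool alone. CDKN1C, an inhibitor of cyclin-dependent kinases, rose by 2.08 on the log2 scale (adjusted p = 0.0366), the antisense RNA KCNQ1OT1 rose by 1.21 (adjusted p = 0.0299), and the mitochondrial ribosomal protein gene MRPL23, whose start site is 40.7 kb from one of H19, fell by 0.99 (adjusted p = 0.0427). CDKN1C was at 4.14, 2.33 and 6.31 CPM in the control cells, at 13.2, 6.20 and 45.4 CPM in the re-expressing cells and at 1.54, 0.977 and 1.10 CPM in the overexpressing cells, and rose by 3.74 (adjusted p = 0.00502) between overexpressing and re-expressing cells.

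Per kb of exon, a scale that compares genes only as far as their whole length is counted, BCYRN1 had the highest value in the control cells, with 87.7 ± 37.4 CPM per kb, followed by GAS5 with 40.7 ± 22.3, MALAT1 with 25.5 ± 10.6, NEAT1 with 9.16 ± 3.43, MIR210HG with 3.26 ± 0.859 and H19 with 0.0253 ± 0.0370 (SD, n = 3). For BCYRN1 the length was 0.2 kb, and 30 of its 31 stretches of 50 bases occur more than once in GRCh37. It is uncertain which fragments its counts hold, so the place of BCYRN1 in the order is uncertain in every pool. BCYRN1 and GAS5, and GAS5 and MALAT1, overlapped between libraries, while MALAT1, NEAT1, MIR210HG and H19 did not overlap with the next in order. NEAT1 was divided by 22.8 kb, and its longest transcript is 22.7 kb. Selection on polyA may capture only a part of that length, and no shorter NEAT1 length was tried. The place of NEAT1 in the order is therefore uncertain in every pool. In the re-expressing cells the order was GAS5 (44.1 ± 25.3), MALAT1 (36.9 ± 17.0), BCYRN1 (26.3 ± 16.2), NEAT1 (13.3 ± 4.53), MIR210HG (10.1 ± 6.76) and H19 (0.0827), where each overlapped with the next except MIR210HG with H19. In the overexpressing cells BCYRN1 (42.8 ± 3.19), GAS5 (37.9 ± 17.2) and MALAT1 (31.6 ± 2.53) came first, then NEAT1 (13.5 ± 4.93), MIR210HG (3.71 ± 1.37) and H19 (0.0233), and only the first 3 overlapped. In the overexpressing cells the order of the first 2 turned with the length used, as GAS5 was at 59.4 ± 27.0 CPM per kb of its longest transcript, above BCYRN1. By CPM, over all 23441 genes, MALAT1 ranked between 235 and 1380 in the 9 libraries and NEAT1 between 333 and 1753.

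The peaks of the members were read against their lists. The 7 lists held 1719 to 6572 peaks, and the share of placed genes with a peak within 10 kb differed between them. In the control cells 2 of the 6 members had one in the HIF-2α list, against 3.74% of genes, and 4 in the HIF-1β list, against 18.3%. In the re-expressing cells 4 members had one in the HIF-1α list (23.9% of genes), 2 in the HIF-2α list (3.04%) and 3 in the HIF-1β list (28.0%). In the overexpressing cells it was 4 in the HIF-2α list (10.4%) and 2 in the HIF-1β list (11.3%). Around the midpoints of the 21 windows nearest to a member, 20 of the 300-base stretches held an HRE core, all 7 at MIR210HG (2 to 3 cores), all 5 at NEAT1 (2 to 4), all 4 at GAS5 (1 to 4) and 4 of 5 at MALAT1. The share of all peaks with a core in such a stretch was 45.7% to 68.2% in the 7 lists. The 21 stretches are not separate sites, because those of different lists often overlap. At MIR210HG the 7 midpoints lay within 0.415 kb. The 20 of 21 therefore cannot be weighed against these shares as separate sites.

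Other long non-coding RNAs and known HIF targets were compared with the members. Of 19 other named long non-coding RNAs that were tested, the blocked edgeR fit called 3 between re-expressing and control cells, against 7.96% of all genes. KCNQ1OT1 (also counted among the imprinted genes above) and FTX, with a log2 fold change of 1.67 (adjusted p = 0.0389), were higher, and DANCR, at -1.19 (adjusted p = 0.0358), was lower. Of 12 tested microRNA host genes it called 1, also against 7.96%, which was MIR100HG, higher by 1.26 (adjusted p = 0.0465). Between re-expressing and overexpressing cells, where 5.93% of all genes were called, the blocked fit called MIR100HG, at 1.93 (adjusted p = 0.0134), and MIR31HG, at 1.56 (adjusted p = 0.0340), both higher in the re-expressing cells, while the long non-coding RNA LUCAT1, at -1.22 (adjusted p = 0.0218), was lower. The 18 reference HIF target and pathway genes included HIF1A and EPAS1, which the vectors carried, so the numbers called are not of HIF targets alone. Of the 18 the blocked fit called 3 as higher in the re-expressing than in the control cells (5.41% of all genes), among them CA9, the carbonic anhydrase, at 5.72 (adjusted p = 0.0427), and KDM3A, a histone demethylase, at 0.91 (adjusted p = 0.0371), the other being HIF1A itself. Between overexpressing and control cells it called 2 of the 18 as higher (0.267% of all genes in either direction), among them EGLN3, a HIF prolyl hydroxylase, at 1.83 (adjusted p = 0.0372). Between re-expressing and overexpressing cells it called 7 (5.93% of all genes), of which HIF1A, CA9, the mitophagy gene BNIP3 and the glycolytic regulator PFKFB4 made up the 4 that were higher in the re-expressing cells, and EGLN3 was among the 3 that were lower, at -1.94 (adjusted p = 0.00515). With the cell pool alone edgeR called 0 in each of these lists in every comparison. Between re-expressing and control cells 3 long non-coding RNAs, 1 host gene and 10 of the 18 reference genes were then below 0.05 before adjustment. DESeq2 called 3, 0 and 2 in these lists.

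The cells were checked by marker genes. All 10 renal epithelial markers had a mean of at least 1 CPM in each pool, with a summed level of 4656 to 7417 CPM, against 0 of 6 endothelial (0.437 to 1.62 CPM), 2 of 7 fibroblast (1.81 to 19.7 CPM) and 2 of 7 immune cell markers (30.9 to 164 CPM). The 2 immune cell markers were CD68 and CSF1R. The renal list included VIM, KRT8 and KRT18, which are not particular to renal epithelium, and EPCAM averaged 7.37 CPM. The summed levels therefore do not measure shares of cell types.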

How the data were processed

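For the 9 RNA-seq libraries the authors deposited counts per gene, named by symbol and not normalized, and for ChIP-seq lists of peak positions on GRCh37 (BED, without scores, so the depth is unknown). Per the submitters' processing notes and the methods, RNA reads were aligned with TopHat2 2.0.8b and Bowtie 1.0.0, fragments with a unique alignment were kept, and HTSeq 0.5.4p3 counted them over UCSC genes. ChIP-seq reads were trimmed with Trim Galore 0.3.3 and aligned with BWA 0.7.5a-r405. Reads with a low mapping quality, in blacklisted regions or duplicated were removed, and peaks were those found by both T-PIC and MACS, filtered on counts. The 3 input samples were not used here.

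Counts were tested with edgeR 4.0.16 (R 4.3.3) with all 9 libraries in 1 fit, TMM factors, filterByExpr, the quasi-likelihood test, Benjamini-Hochberg adjustment over 14225 genes and a threshold of 0.05. DESeq2 1.42.0, which the methods name, was an alternative. Same-numbered libraries of different pools deviated together (r of 0.348 to 0.652 over genes in 9 pairs, against -0.478 to 0.0281 in the 18 other pairs). The deviations are from the mean of a pool, so positive values in the 9 pairs push the 18 others towards negative ones. The numbers were treated as pairs on these data alone, and the fit with the replicate block is given where it changes a call. Library totals of 27852754 to 54287621 counts make the spread between libraries, and not counting error, the limit for all members but H19.

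Start sites are those of GENCODE on GRCh37. Of 23441 symbols, 22063 were placed. Promoter and microRNA sequences are from RefSeq (GRCh38.p14). The fits were also run on simulated counts with known, large fold changes, which does not bear on how stable the calls described here are. A few items of the lists are not reported here. The members, the lists and the rule for named genes (every member, list genes past the threshold, the 3 genes closest in pattern to each member, and neighbours within 100 kb) were chosen with earlier results of these data known.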

Additional observations from a re-analysis of the deposited data

How the results depend on the processing

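The edgeR fit with the cell pool alone called 0 members in every comparison, also when any library was left out. Between re-expressing and control cells 2 members were called by DESeq2, with the replicate block, and with the block and RLE size factors, library totals alone or no filter. Between re-expressing and overexpressing cells 1 member, MIR210HG, was called in each of these 4 blocked fits. With the block and 1 library left out, the numbers ranged from 0 to 2 and from 0 to 1. Over all genes those fits called 0 to 2408 and 167 to 890. The paired fit changed no other call of a member. Over all genes the calls between re-expressing and control cells numbered 0, 1132 with the block and 751 with DESeq2, between overexpressing and control cells 0, 38 and 65, and between re-expressing and overexpressing cells 7, 843 and 650. Without the filter edgeR called 0, 1 and 82 genes, and with only the groups compared 0, 2 and 0. All fits that combine the block with another choice were chosen after seeing the data. Adjusted p-values over the 27 alternatives ranged from 0.0211 to 0.347 for MIR210HG and from 0.0186 to 0.347 for BCYRN1 between re-expressing and control cells. The NEAT1 difference between re-expressing and overexpressing cells, -0.03, turned to 0.035 with the block and to 0.020, 0.051 and 0.015 with RLE factors, totals or no filter beside it. Leaving out a library turned the sign of small log2 fold changes that did not pass the test, with ranges between re-expressing and overexpressing cells of -0.37 to 0.38 for NEAT1, -0.17 to 0.54 for MALAT1 and -0.27 to 0.60 for GAS5, between overexpressing and control cells of -0.19 to 0.41 for MIR210HG and -0.48 to 0.41 for GAS5, and between re-expressing and control cells of -0.33 to 0.62 for GAS5. The cause was not tested. Of the alternative fold changes of members, 346 kept their direction and side of the threshold, 24 passed it and 35 changed sign. Per kb of the longest transcript, GAS5 was at 63.8 in the control and 59.4 CPM per kb in the overexpressing cells. Peak counts near the members stayed within 1.5 times, except for MALAT1 with 2 lists within 2.5 kb and for H19 and BCYRN1 with 2 lists each within 50 kb. H19, with at most 34 counts in a library, limits what can be said of it.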
